A study of Mus musculus with 6 samples.

Results

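This account covers 8 lysosomal genes of the mouse kidney, chosen by name because amodiaquine, a 4-aminoquinoline and weak base, builds up in lysosomes. The genes were Lgmn, Ctsz, Galns, Asah1, Psap, Cd63, Laptm4b and Atp6v1a. All 8 were on the array, with 15 probes among 15114 probes that named 1 gene and 9107 named genes in all. Male Swiss albino mice aged 8 to 10 weeks received Amodiaquine at 120 mg/kg, Sulfodoxine-Pyrimethamine (SP, an antifolate pair) at 300 mg/kg and 15 mg/kg, or all of these drugs. A vehicle group received DMSO, and the labels describe 4 mice per group that were kept for 24 h after dosing. Whole kidney RNA of each treatment was set directly against vehicle RNA on 2 two-colour arrays. By the labels the treated RNA carried Cy5 on the forward array (replicate 1 here) and Cy3 on the reverse array (replicate 2). The labels do not say whether RNA of several mice was pooled or whether the 2 arrays of a treatment held separate extracts, so the p-values measure only the spread between arrays, which may be technical. No array set vehicle against vehicle.

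Lysosomes are acidic compartments in which proteases, glycosidases, sulfatases and lipases break down material from endocytosis and autophagy. The vacuolar proton pump keeps them acidic, and integral membrane proteins enclose them. In the kidney the proximal tubule is rich in lysosomes because it takes up and degrades filtered protein. Weak bases such as 4-aminoquinolines become trapped in acidic compartments once protonated. Many lysosomal genes carry an E-box of the letters CACGTG near their start, which the transcription factor TFEB and its relatives bind.

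The promoter table of RefSeq (assembly GRCm38.p6, 250 bases before to 50 bases after a gene's start) held 7 entries for 5 of the 8 genes. The letters CACGTG, which read the same on both strands, were found in 2 of these 7 and in 7.15% of all 32851 promoters of the same length. Among 102 genes of the wider lysosomal lists they stood in 28 of 125 promoters, or 22.4%. The 2 matches, 1 at Atp6v1a and 1 at a second start of Lgmn, are shown with 27 bases on either side because this is a sequence feature that part of the set shares and that the choice of genes did not use. Capitals mark the E-box, and both genes lie on the minus strand.
Atp6v1a, chr16:44139358-44139417: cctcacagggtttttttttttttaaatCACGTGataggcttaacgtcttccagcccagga
Lgmn, chr12:102439109-102439168: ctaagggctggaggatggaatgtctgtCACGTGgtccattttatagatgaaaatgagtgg
At Atp6v1a the match extends to TCACGTGA, a longer form found in 0.974% of all promoters and 11.2% of the lysosomal ones. At Lgmn it extends to GTCACGTG (either strand, overlapping the first motif), found in 2.25% and 16.8%. These are matches of letters, and binding was not measured.

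How far a value can be tied to a gene differed between the scans. The 6 files held 4 distinct scans: 36.9% of the Cy3 foreground values of SP replicate 2, and 41.9% of those of amodiaquine+SP replicate 2, also stood in the file of replicate 1, against 0.0911% in the amodiaquine pair. SP and amodiaquine+SP therefore each rest on 1 scan, taken here from replicate 1, whose direction is not settled and which is given as Cy5 over Cy3. Each array had 48 blocks of 480 spots, and in many blocks the measuring grid was displaced by a row or column. A block was called in register when neither dye matched the other treatments better at a shift and the dyes correlated at 0.5 or more in rank. This held for 20 and 25 blocks on amodiaquine replicates 1 and 2, for 35 in the SP scan and for 30 in the amodiaquine+SP scan. With so few scans, their number limits the precision of every value.

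The probes of these 8 genes were among the brighter spots. Their median brightness was at percentile 83.5 of all spots (mean percentile of the foreground over dyes and scans), against 46.3 for all named probes. By each gene's brightest probe, the median was 87.4 for these 8 genes and 52.3 for all named genes. For the 83 genes of the wider lysosomal lists on the array, these 8 included, it was 59.9. Had names been taken by spot number, without the block order used here, the median for probes of these genes would have been 59.7. The 8 genes were chosen with earlier results of these data known, so this contrast is no independent check of the block order. Brightness places a spot on the array and does not rank transcripts of different genes. A probe counted as measured when its signal-to-noise ratio, as deposited, was 2 or more in at least 1 dye on 3 or more of the 4 scans. By this rule 9 of the 15 probes and 7 of the 8 genes were measured, and Asah1 was not. On both amodiaquine arrays, 6 probes of 6 genes were in register with a ratio of 2 or more in both dyes. A background recorded as 0 counted as passing. By this rule 563 probes of the whole array passed, these 6 included, and they are called well measured below. Psap and Asah1 are the genes with no such probe. On replicate 1 the Cy3 background of the Ctsz, Galns, Laptm4b and Atp6v1a probes was recorded as 0. Of the 6, only the Lgmn and Cd63 probes passed without such a background.

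**Figure D1:**
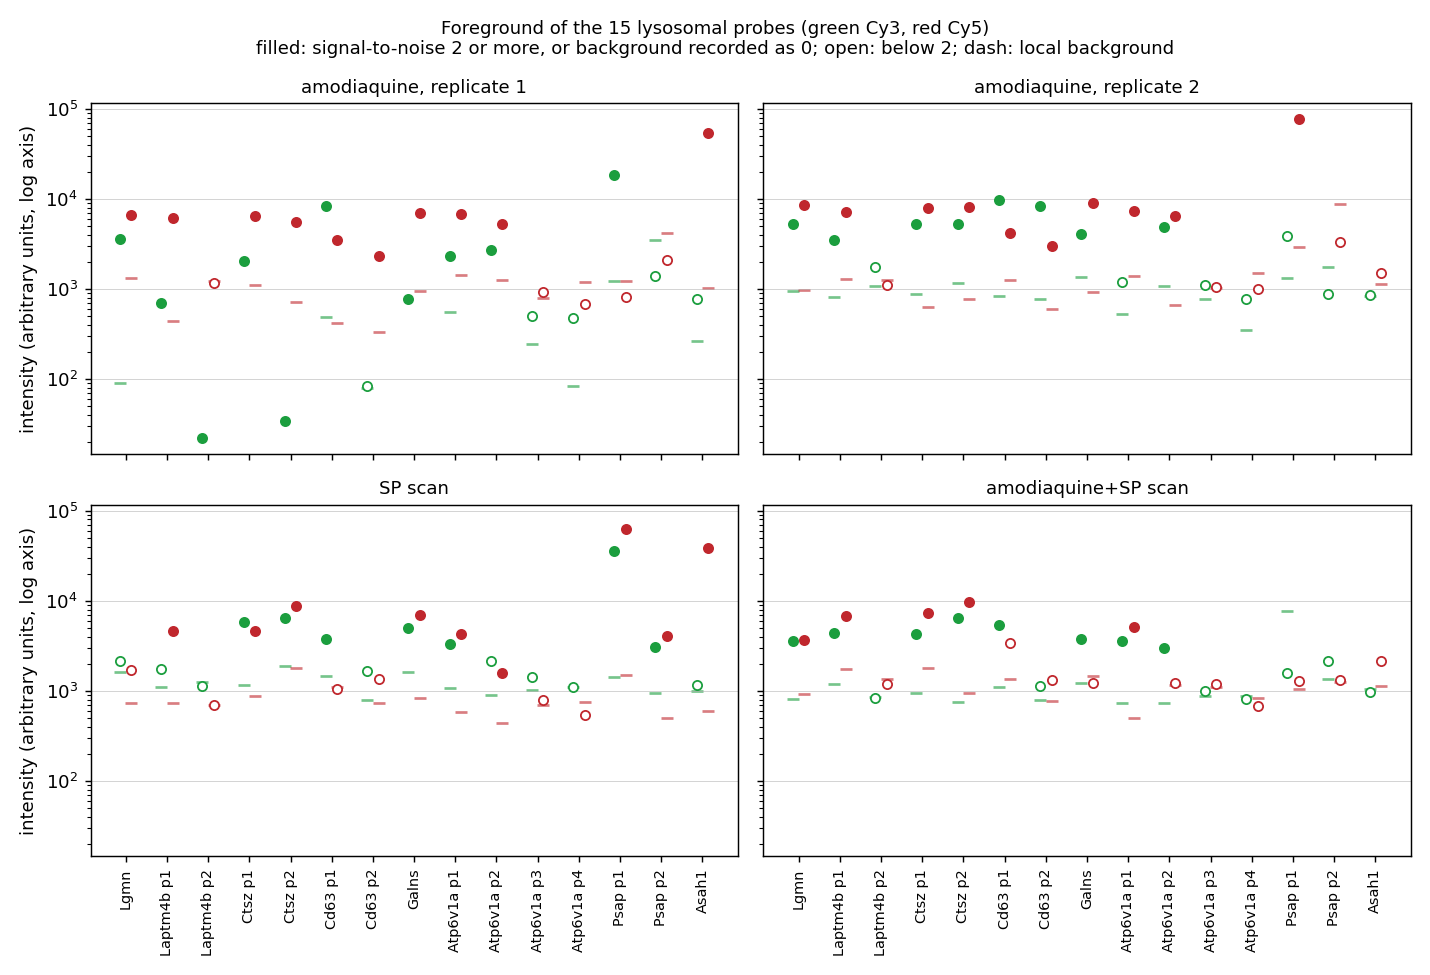
Foreground intensity (log axis, arbitrary units) of all 15 probes in Cy3 (green) and Cy5 (red) on the 4 distinct scans, with local background as dashes and p1 to p4 numbering a gene's probes from brightest. Filled points reached a signal-to-noise ratio of 2 or lay over a background of 0. The first probes of Cd63, Ctsz and Lgmn stand above background in both dyes on the amodiaquine arrays, whereas the Psap p1 and Asah1 spots have 1 dye far above the other on amodiaquine replicate 1.

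Of the proteases, Lgmn encodes legumain, the asparaginyl endopeptidase that also matures cathepsins. Its 1 probe was in register on all 4 scans. On amodiaquine replicate 1 its foreground was 3560 in Cy3 and 6625 in Cy5, with signal-to-noise ratios of 10.7 and 3.96. On replicate 2 the foreground was 5249 and 8551, with ratios of 5.21 and 7.32. Both dyes were therefore above background on both arrays of this drug. After loess within blocks, the log2 ratio of Cy5 over Cy3 was -0.09 and -0.08 on replicates 1 and 2, 0.63 in the SP scan and -0.16 in the amodiaquine+SP scan. The SP value comes from a spot with signal-to-noise ratios of 0.55 and 1.27, below the limit in both dyes. Turned to treated over vehicle by the labelled dyes, the amodiaquine arrays gave -0.09 and 0.08, and their mean was -0.0041 ± 0.51 (limma SE, n = 2 arrays). The 95% confidence interval of that mean ran from -1.52 to 1.51, so a change of 2-fold in either direction lies inside it.

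Ctsz encodes cathepsin Z, a carboxypeptidase. Its brighter probe, in block 43, was the brightest of the 15 at percentile 93.4, and its 2 probes were the only ones of the 15 at or above the signal-to-noise limit in both dyes on all 4 scans, counting as above it the Cy3 spots of replicate 1 whose background was recorded as 0. On replicate 1 the Cy3 foreground was 2026 over a background recorded as 0, and the Cy5 foreground 6404 at a ratio of 5.28. On replicate 2 they were 5270 and 8026, at ratios of 5.44 and 10.5. The log2 Cy5 over Cy3 was 0.12 and -0.15 on the amodiaquine arrays, -0.44 in SP and -0.03 in amodiaquine+SP. In both of the latter scans the Cy3 grid of the block matched best at a shift of 1 column, and with this undone the ratios were 0.01 and 0.38. In amodiaquine+SP this moved Cy3 from 4316 to 2434, while the file of replicate 2, once moved, gave 4316 and a ratio of 0.05. The value of 0.38 is therefore not secure. The brighter probe was the only well measured lysosomal probe with the same turned sign on both amodiaquine arrays (0.12 and 0.15, mean 0.14 ± 0.51, limma SE, n = 2 arrays). The second probe, in block 48, read 1.46 and 0.38 on these arrays. In that block the Cy3 grid of replicate 1 was displaced by 1 row, and the Cy3 foreground there was 34, against 5297, 6497 and 6412 in the other scans. Genes whose 4 ratios lay nearest to those of the brighter Ctsz probe, among 262 genes measured in both dyes on all scans, were the glutathione peroxidase gene Gpx3, the thymosin gene Tmsb4x and the RNA polymerase III subunit gene Polr3c. Their root mean square differences were 0.106, 0.145 and 0.158 in log2 ratio. Of the 4 Ctsz ratios compared, 2 came from scans where its block was out of register. Gpx3 and Polr3c were each out of register on 1 of their 4 scans.

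Galns encodes the sulfatase that starts the breakdown of keratan sulfate and chondroitin 6-sulfate. Its 1 probe, in block 42, had a Cy3 foreground of 781 on replicate 1 over a background recorded as 0, and 4050 on replicate 2 at a signal-to-noise ratio of 2.53. In Cy5 the foreground was 6918 and 9108, at ratios of 6.37 and 5.62. The log2 Cy5 over Cy3 was 1.02 and 0.70, so Cy5 was the brighter dye on both amodiaquine arrays, and it was 0.39 in the SP scan. The amodiaquine+SP value of -0.48 came from a block where Cy5 was displaced by 1 row. With this undone the Cy5 foreground was 7942 in place of 1228, and the ratio was 0.29. Turned, the ratios were 1.02 and -0.70, of opposite sign, with a mean of 0.16 ± 0.69 (limma SE, n = 2 arrays).

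Asah1 encodes acid ceramidase, which cleaves ceramide in the lysosome. Its 1 probe lay in block 16, in register only on amodiaquine replicate 2. There both dyes were near background, at 864 in Cy3 and 1517 in Cy5 with signal-to-noise ratios of 0.03 and 0.34. On replicate 1 the Cy5 foreground was 54304 against 768 in Cy3, and in the SP scan it was 38201 against 1168. On both of these the Cy5 grid of the block was displaced by 1 row, while Cy3 was not. When Cy5 was read 1 row away, it was 1408 and 718, and the log2 Cy5 over Cy3 went from 2.31 to 0.25 on replicate 1 and from 5.20 to -0.04 in SP. In the amodiaquine+SP scan the ratios were 0.00 and 0.93, so no dye reached 2 outside the 2 displaced readings.

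Psap encodes prosaposin, the precursor of the saposins that help enzymes reach sphingolipids. The brighter of its 2 probes, in block 7, gave the ratio farthest from 0 of the 15 on the amodiaquine arrays, a log2 Cy5 over Cy3 of -5.10 on replicate 1, from 18435 in Cy3 and 825 in Cy5. On replicate 2 the ratio was 0.47, from 3918 in Cy3 and 76601 in Cy5. In the SP scan, the only one in register at this block, it was 0.19, from 36004 and 62817. On replicate 1 the Cy5 grid was displaced by 1 row, and 1 row away the Cy5 foreground was 60631, near its values of 76601 and 62817 elsewhere. With the displacement undone the ratio on replicate 1 was -0.33. In the amodiaquine+SP scan undoing a Cy5 displacement of 1 row moved the ratio away from 0, from 0.08 to 3.45, with Cy3 at 1576 and below its background. The replicate 2 file of that scan, with its Cy3 displacement undone, gave 0.14 from 40126 in Cy3 and 75156 in Cy5. The turned mean went from -2.78 ± 1.35 (limma SE, n = 2 arrays) to -0.40. On replicate 2 the same spot had a log2 ratio of 3.43 as Cy5 over Cy3 in the authors' deposited table and 3.49 when a single loess curve was fitted to the array, against 0.47 after loess within its block, so its size there depended on the normalization. The second Psap probe, in block 9, was in register on all 4 scans, but on both amodiaquine arrays its foreground was below its local background in both dyes. In the SP scan its foreground was 3068 in Cy3 and 4030 in Cy5, at signal-to-noise ratios of 2.84 and 4.76. Its log2 Cy5 over Cy3 there was 0.46, beside 0.19 for the brighter probe.

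**Figure D2:**
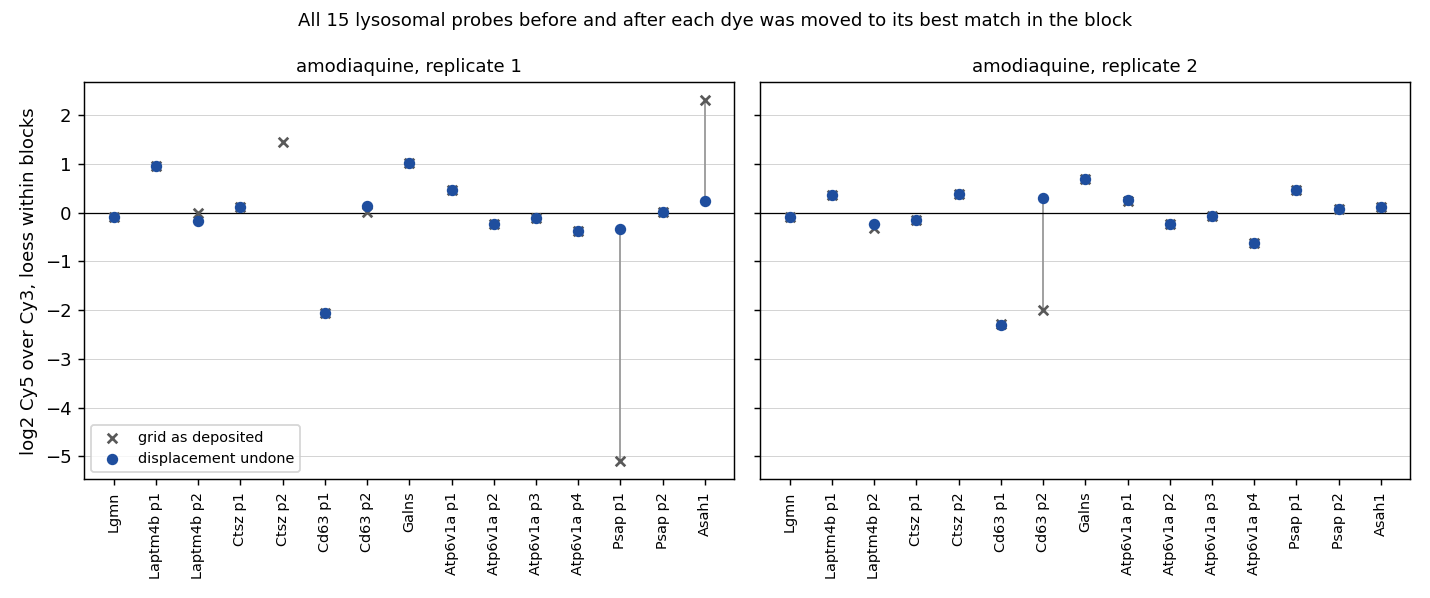
The log2 ratio of Cy5 over Cy3 for all 15 probes on amodiaquine replicates 1 and 2, at the deposited grid position (crosses) and after each dye was moved to its best match in the block (points). Psap p1 and Asah1 on replicate 1 go from -5.10 to -0.33 and from 2.31 to 0.25. Cd63 p2 on replicate 2 goes from -2.00 to 0.30 as its Cy3 falls from 8450 to 1975, and which position belongs to it is not settled. Ctsz p2 on replicate 1 has no moved value because the shift leaves the block.

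Cd63 encodes a tetraspanin of late endosomes, lysosomes and exosomes. Its brighter probe, in block 25, was in register on all 4 scans and stood out by its dye ratio. On replicate 1 its foreground was 8352 in Cy3 and 3538 in Cy5, at signal-to-noise ratios of 9.58 and 4.41. On replicate 2 it was 9683 and 4187, at 11.7 and 2.44. In the SP scan it was 3797 and 1036, and in the amodiaquine+SP scan 5322 and 3434, with Cy5 under the limit on both. Cy3 was the brighter dye in every scan. The log2 Cy5 over Cy3 was -2.06, -2.29, -1.88 and -0.49 in that order. By the labels Cy3 held vehicle RNA on replicate 1 and amodiaquine RNA on replicate 2, so the turned ratios were -2.06 and 2.29. Their mean was 0.12 ± 1.28 (limma SE, n = 2 arrays; 95% confidence interval -3.68 to 3.92), while the unturned mean was -2.18 ± 0.26. The second Cd63 probe, listed under other sequence records in the probe table and out of register on all 4 scans, read 0.02 and -2.00 on the amodiaquine arrays. On replicate 1 its Cy3 foreground was 84 over a background of 79, so that ratio has no measured Cy3 behind it. On replicate 2 both dyes were above the limit at the deposited position, at signal-to-noise ratios of 12.1 and 3.40. With the displacement undone Cy3 there went from 8450 to 1975, and the ratio was 0.30. The shift was matched to scans of the other treatments, whose Cy3 grids were displaced in this block as well. Which position belongs to the probe is therefore not settled. In the SP and amodiaquine+SP scans the second probe read -0.86 and 0.01 at the deposited position. With the displacement undone it read -1.59 and -0.45, near the -1.88 and -0.49 of the brighter probe. Whether the probes of Cd63 agree on the amodiaquine arrays could not be read from these values.

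Laptm4b encodes a membrane protein of late endosomes and lysosomes that interacts with ceramide. The brighter of its 2 probes shared block 43 with Ctsz. Its foreground on replicate 1 was 692 in Cy3, over a background recorded as 0, and 6209 in Cy5, and on replicate 2 it was 3500 and 7094. The log2 Cy5 over Cy3 was 0.97 and 0.37, toward Cy5 on both arrays, and the turned mean was 0.30 ± 0.62 (limma SE, n = 2 arrays). The value of 2.02 in the SP scan came with the Cy3 grid displaced by 1 column, and was -0.06 with the displacement undone. In the amodiaquine+SP scan, also displaced in Cy3, it was -0.05 at the deposited position and 0.25 with this undone. The other probe was dim, at percentile 35.7, and no scan had a signal-to-noise ratio of 2 in both dyes there.

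Atp6v1a encodes the catalytic A subunit of the vacuolar proton pump. It had 4 probes, of which 2 were measured. The brighter one, in block 2, was in register on all 4 scans, with a Cy5 foreground of 6789 and 7282 on the amodiaquine arrays and a Cy3 foreground of 2320 and 1205, the latter at a signal-to-noise ratio of 1.30. The log2 Cy5 over Cy3 was 0.46, 0.25, 0.67 and 0.38 on amodiaquine replicates 1 and 2, SP and amodiaquine+SP, positive in all 4. With a single loess curve for the array, the ratio on replicate 2 was 2.06, and the turned mean went from 0.10 to -0.76, so its direction depended on the normalization. The second probe, in block 28, gave -0.23 on both amodiaquine arrays and -0.22 in SP, the opposite side of 0. Its Cy3 background on replicate 1 was recorded as 0, and its Cy3 signal-to-noise ratio in SP was 1.73, below the limit. The amodiaquine+SP value of -0.35 came with the Cy5 grid displaced by 1 column, and was -0.05 with this undone. This second probe is the Atp6v1a probe among the well measured ones. The other 2 probes, at percentiles 42.8 and 18.7, had no dye with a ratio of 2 on any scan.

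The comparison asked whether amodiaquine shifted these genes against vehicle. Read as labelled, none passed the test: limma called 0 of the 9 measured lysosomal probes and 0 of 3223 probes in all (0%) at a Benjamini-Hochberg adjusted p under 0.05. Every lysosomal probe had a limma adjusted p of 0.9999. At an unadjusted p under 0.05 there were 0 of the 9 and 60 of the 3223 (1.86%). The turned estimates ran from -2.78 for Psap to 0.54 for the displaced Ctsz probe, and without these 2 from -0.0041 to 0.30. The spread between the turned arrays includes any ratio that follows the dye. A 2-fold change in either direction lay inside the 95% confidence interval of each of the 9 probes, so changes of that size were not detectable with these arrays.

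Unturned, the picture was of a shared dye ratio. Among the 6 well measured lysosomal probes, 5 had the same sign of Cy5 over Cy3 on both amodiaquine arrays and 1 (Ctsz) the same turned sign. Of all 563 well measured probes, 452 (80.3%) and 111 (19.7%) did so. Across these 563 probes, which share slides and labelling reactions, the dye ratios of both arrays, labelled as a swap, correlated at r = 0.813. The 6 turned means had a median of 0.13 and the unturned a median of -0.05, beside 0.03 and -0.03 over the 563. Cd63 was 1 of 110 probes (19.5%) at 1.5-fold or more toward Cy3 on both arrays, and its unturned mean was at percentile 1.42. Galns was 1 of 48 (8.53%) at 1.5-fold or more toward Cy5. In the same turned direction on both arrays, 0 of the 563 (0%) reached 1.5-fold. A dye effect common to both arrays and a second array that was not swapped cannot be told apart here.

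**Figure D3:**
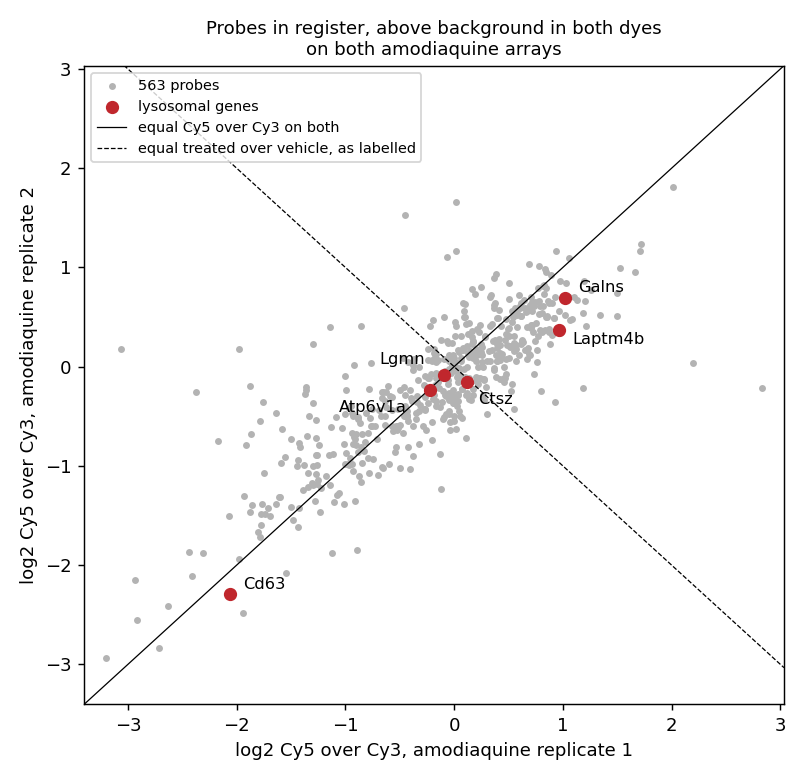
Log2 Cy5 over Cy3 on amodiaquine replicate 2 against replicate 1 for 563 well measured probes (grey), with the 6 lysosomal genes in red. Points on the solid line have the same dye ratio on both arrays, and points on the dashed line have the same treated over vehicle ratio if the dyes were swapped as labelled. Cd63 lies near the solid line at -2.06 and -2.29, and Galns and Laptm4b lie on the Cy5 side of both arrays.

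The unturned test gave no call over all measured probes (limma, 0 of 3223, 0%, and 302 or 9.37% at an unadjusted p under 0.05), with Cd63 at a limma adjusted p of 0.503. When the fit was limited to the 1044 probes whose blocks were in register on both, limma called 106 (10.2%), 26 toward Cy5 and 80 toward Cy3. Cd63 was then called, at -2.18 ± 0.21 (SE, n = 2 arrays, limma adjusted p = 0.0233), 1 of the 80 probes (7.66%) on that side. Galns at 0.86 ± 0.22 and Laptm4b at 0.67 ± 0.25 had limma adjusted p of 0.0689 and 0.13 and were not called. With 1 of 7 lysosomal probes against 10.2% of all, the share lay near the background. Such a call says that the dyes differed at a spot on both arrays, which the labels assign to opposite treatments.

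**Figure D4:**
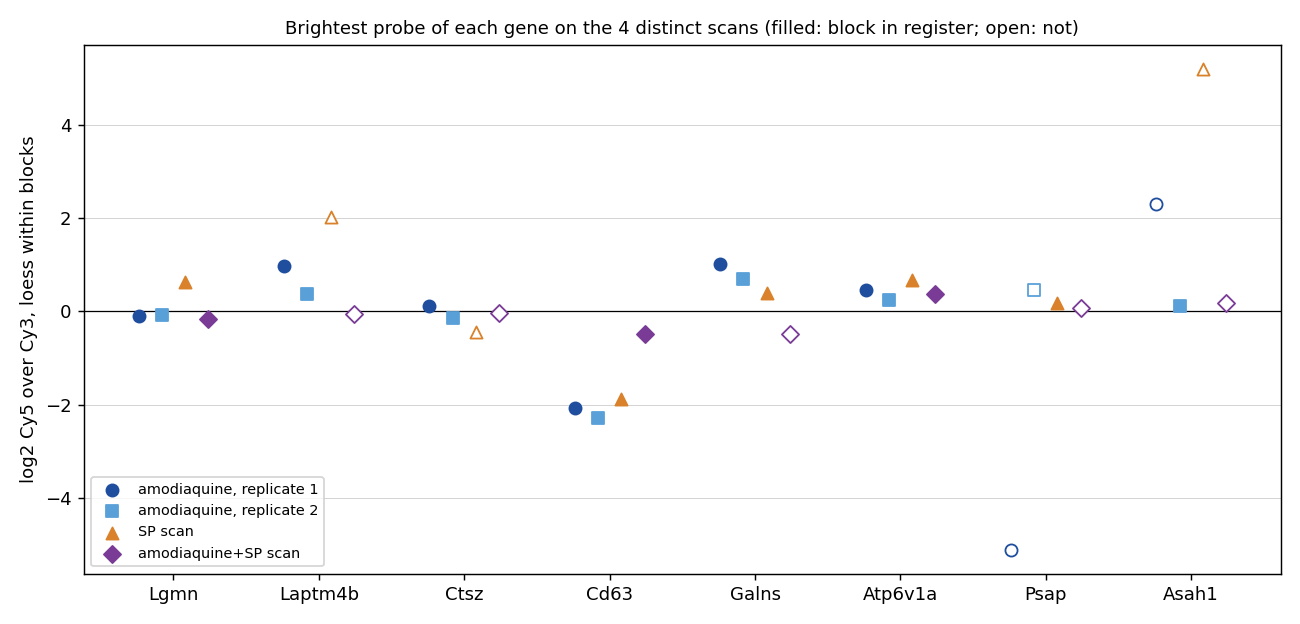
Log2 Cy5 over Cy3 of the brightest probe of each of the 8 genes on the 4 distinct scans, filled where the block was in register. Cd63 is below 0 on all 4 scans (-2.06, -2.29, -1.88 and -0.49), Atp6v1a is above 0 on all 4, and the extreme values of Psap, Asah1 and Laptm4b are open points.

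SP and amodiaquine+SP have 1 scan each, so their values carry no test. In the SP scan, 5 of the 8 brightest probes were in register, and their log2 Cy5 over Cy3 ran from -1.88 for Cd63 to 0.67 for Atp6v1a. In amodiaquine+SP, 3 were in register, at -0.49 for Cd63, -0.16 for Lgmn and 0.38 for Atp6v1a. The file of replicate 2 gave other values from the same scan. For Cd63 it gave 1.06 in SP, where both dyes were displaced, against -1.88. In amodiaquine+SP it gave -2.57 against -0.49, with no displacement found in that block, the same Cy3 foreground of 5322 and a Cy5 foreground of 1618 in place of 3434. For Psap in amodiaquine+SP, the Cy5 foreground was 1278 in 1 file, where Cy5 was displaced by 1 row, and 75156 in the other.

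For 2 of the 8 genes, more than 1 probe was measured. The measured pair of Atp6v1a differed by 0.587 in unturned and 0.0983 in turned log2 ratio, and that of Ctsz by 0.941 and 0.403. Both pairs had opposite unturned signs and the same turned sign. The Ctsz gaps include the displaced reading of its second probe on replicate 1. The unturned sign of Ctsz rests on -0.02 for its brighter probe, and the turned sign of Atp6v1a on 0.004 for its second probe. Over 424 pairs of measured probes from 197 genes, the median gaps were 0.674 unturned and 0.54 turned, with the same sign in 63.4% and 50.7% of pairs. Restricted to 62 pairs in blocks in register on both amodiaquine arrays, the median gaps were 0.473 and 0.198. For Psap, Cd63 and Laptm4b the dimmer probe did not count as measured by the signal-to-noise rule, so no difference between their amodiaquine ratios is given. Both Psap probes were in register and above the limit in both dyes in the SP scan, at 0.19 and 0.46.

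Of 132 genes in the wider lysosomal lists, 83 were on the array and 21 were measured, the 7 measured genes above included. In 28 measured probes of these 21 genes limma called 0 turned and 0 unturned. The 14 others were the cathepsins Ctsb, Ctsd, Ctsf and Ctsl, the aspartic protease gene Napsa, Lamp1, the cholesterol transport genes Npc1 and Npc2, the pump subunit gene Atp6v1e1, the adaptor genes Ap3b1 and Ap3d1, the tethering genes Vps11 and Vps39, and Lamtor1. Their turned values were above 0 in 6 and below 0 in 8, from -2.27 (Ap3b1) to 2.19 (Vps11), with a median of -0.05 beside -0.01 over all 3223 probes. Of these 14 only Ctsd, at -0.04, and Ctsl, at -0.06, lay in register on both arrays. The Cy5 over Cy3 was -0.02 and 0.07 for Ctsd and -0.29 and -0.17 for Ctsl. Lamp1, the main membrane glycoprotein of lysosomes, had -0.23 and -0.32 unturned, out of register on at least 1 of the arrays.

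As a check of the tissue, 9 of 17 kidney tubule markers were on the array and 7 were measured, with Umod at brightness percentile 95.4 and the endocytic receptor gene Lrp2 at 91.0. Aqp1 and Slc12a1, at percentiles 82.0 and 46.8, were not measured. Among the measured tubule markers only Umod and Lrp2 lay in register on both amodiaquine arrays. Of macrophage and leukocyte markers, which also use lysosomes heavily, 4 of 16 were present and 1, Lyz2, was measured, while Ptprc, Csf1r and Laptm5 were not. Of endothelial and glomerular markers 1 of 5 present was measured, and of intercalated cell markers 0 of 4. Lyz2 was out of register on at least 1 amodiaquine array and had a turned mean of 1.30 with a limma adjusted p of 0.9999. Its Cy5 over Cy3 was 3.93 and 1.34 on replicates 1 and 2, so the turned ratios had opposite signs. In whole kidney RNA fewer cells of a type and less RNA per cell cannot be told apart.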

How the data were processed

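Kidney RNA was measured on two-colour arrays. The deposited scanner files give linear foreground, local background and background-corrected intensity per spot and dye, and a signal-to-noise score, measured in ArrayVision per the series' design text; corrected values equalled foreground minus background, or 0, in 100% of spots within 0.002. The authors deposited log2 ratios made, per the series' design text, from background-corrected data by LOWESS in Avadis. Their slope against subtracted, loess-normalized scanner ratios was 0.998 to 1.04 on replicates 1 and -1.1 to -0.967 on replicates 2, so they are turned by the labelled dyes. Their column medians were 0.02, 0.115, 0.0582, -0.0617, 0.0585 and -0.0684, and their centring stays unknown.

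Names came from the platform's probe table with the 48 blocks reordered as 4 x 12 by columns. By spot number the 139 ribosomal protein probes had a mean brightness percentile of 54.6, against 75.3 reordered. Symbols were updated to RefSeq by gene ID (8991 matched). Background was corrected with normexp (offset 50), followed by loess within blocks, in limma 3.58.1 under R 4.3.3. The amodiaquine pair was fitted alone with 1 coefficient, turned and unturned, with eBayes and Benjamini-Hochberg adjustment over 3223 measured probes. Cy5 background was missing at 58 spots of SP replicate 1; the array's median stood in during background correction, and their ratios were then dropped. Cy3 background was recorded as 0 at 7079 spots of amodiaquine replicate 1, where the ratio passed any limit. The fit was tested on simulated data.

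All 8 genes and all their probes are named; from the lists, the rule took up to 6 genes measured in both dyes on all scans (only Ctsz was), and the 14 other measured list genes and the marker genes are named beyond it, after their values were seen. Likeness was to be given for the 2 brightest genes measured that way, and only Ctsz was. The genes, lists and settings were chosen with earlier results of these data known. Alternatives were whole-array loess, subtracted background, the authors' values, other filters, all 6 arrays, blocks in register, a trended robust prior, single arrays and, added after the data were seen, displacement undone.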

Additional observations from a re-analysis of the deposited data

How the results depend on the processing

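Probes called for amodiaquine read as labelled stayed at 0 in every alternative fitted. Unturned, the count was 0 except in blocks in register on both arrays, where it was 106 and held Cd63, at -2.18 with an adjusted p of 0.0233 (limma), the only alternative in which a lysosomal gene was called. Of 65 turned values of the 7 measured genes under alternatives that allow a test, 5 changed sign and none was called. With a single loess curve per array the turned means were -0.02 for Cd63 and -0.76 for Atp6v1a, and the unturned mean of Ctsz was 0.10. The authors' deposited table gave turned means of 0.04 for Lgmn and -0.74 for Atp6v1a, and subtracted background gave -0.04 for Ctsz. With the displacement undone, the unturned mean of Psap was 0.07. Larger moves with no change of sign were turned means of 1.14 for Laptm4b and 0.83 for Galns with the authors' values and -4.43 for Psap with the single curve. The mean of both Ctsz probes, which has no test, gave 0.45 unturned, against -0.02 for the brighter probe. Single arrays have no test: replicate 2 alone gave turned values of 0.08 for Lgmn, -0.37 for Laptm4b, -0.70 for Galns and -0.25 for Atp6v1a, and replicate 1 alone -2.06 for Cd63, each of opposite sign to the mean. No paired analysis was possible because the labels mark forward and reverse labelling and tie no arrays of different treatments to shared animals or days, and SP and amodiaquine+SP hold 1 scan each. Signal over background limits Asah1 and the other probes not counted as measured, for which no mean of both amodiaquine arrays is supported. The shift that undoes a displacement is the best match of a whole block and can be wrong for part of it: in block 43 of amodiaquine+SP it moved the Cy3 foreground of Laptm4b from 4412 to 2702 in the file of replicate 1, while the file of replicate 2 gave 4412.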
